A study of Mus musculus with 8 samples.

Results

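GATA2 peaks of 2 cell lines overlapped at the boundary of 10 mouse genes. These were the transcription factor genes Irf9, Tcf3 and Zfp763, the genes Wsb1, Chek2 and Tsn of ubiquitin, checkpoint and nucleic acid biology, Ift20 and Galnt15 of protein traffic and glycosylation, and the metabolic genes Got1 and Ndufa9. They were chosen from peak positions, as genes with a 3T3-L1 peak that overlapped a C3H10T1/2 peak about 100 bp or less from the gene's lower or higher coordinate. They are 10 of 21631 protein-coding genes, and 2 genes outside the 10 also had both peak centres within 100 bp. The mouse line 3T3-L1 consists of preadipocytes, fibroblast-like cells already set on becoming fat cells. C3H10T1/2 cells are mesenchymal precursors from the mouse embryo with a wider choice of fates, fat, bone, muscle and cartilage among them. The labels name 4 groups with 2 libraries each: GATA2 chromatin immunoprecipitation with antibody sc-9008x in 3T3-L1 cells and in C3H10T1/2 cells, both of the parental lines with no treatment or allele named and at passages 4-6, and input chromatin of each line without antibody. Per the labels' protocols the sequenced DNA was pooled from separate immunoprecipitations. The data analysed are 1 list of peaks per line, with 2445 peaks in 3T3-L1 and 1557 in C3H10T1/2, each given by chromosome, start and end in mm10. Neither list gives a height, score or depth, so the measurements are positions and widths in bp, with no replicate value, and no difference between the lines can be set against the spread between cultures.

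GATA2 is a zinc finger transcription factor that binds a short DNA word with the letters GATA at its core. It is known for keeping blood stem cells and fat cell precursors in an immature state. Most of its sites in many cell types lie away from gene starts, in enhancers. A minority lie at promoters, the stretches around the start of a gene where the transcription machinery assembles.

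The stretches below show what lay under both peaks at 6 of the genes, 5′ to 3′ on the gene's strand, ending no more than 15 bases from the listed start on. They come from the RefSeq promoter windows of GRCm38.p6, the mm10 assembly, which hold 250 bases before and 50 bases from each listed gene start on. The first 4 carry in capitals a six-letter GATA word, namely AGATAA or AGATAG, or the same with T as its first letter, on either strand. Those of Irf9 and Wsb1 sit against the gene start, and those of Ndufa9 and Zfp763 sit farther upstream. The stretch of Got1 is shown for contrast, since it holds the four-letter core GATA (in capitals) but no such six-letter word. That of Ift20 holds neither within the bases shown, and its capitals mark the ETS factor word CCGGAAG read on the other strand.
Irf9, chr14:55603900-55603999, plus strand: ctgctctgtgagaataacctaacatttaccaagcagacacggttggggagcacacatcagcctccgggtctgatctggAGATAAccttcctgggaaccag
Wsb1, chr11:79254681-79254742, minus strand: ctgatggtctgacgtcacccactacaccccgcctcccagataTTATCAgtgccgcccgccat
Ndufa9, chr6:126849168-126849264, minus strand: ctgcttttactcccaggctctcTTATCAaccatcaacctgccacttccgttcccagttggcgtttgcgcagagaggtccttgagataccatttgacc
Zfp763, chr17:33033412-33033531, minus strand: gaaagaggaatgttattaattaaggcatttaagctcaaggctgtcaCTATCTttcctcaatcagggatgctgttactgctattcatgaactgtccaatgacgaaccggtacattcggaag
Got1, chr19:43524591-43524787, minus strand: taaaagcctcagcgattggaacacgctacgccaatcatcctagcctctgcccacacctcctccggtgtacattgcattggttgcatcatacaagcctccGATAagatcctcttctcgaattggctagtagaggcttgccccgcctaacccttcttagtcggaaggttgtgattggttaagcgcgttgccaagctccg
Ift20, chr11:78536307-78536375, plus strand: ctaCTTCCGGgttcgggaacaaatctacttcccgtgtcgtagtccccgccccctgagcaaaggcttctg

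All 10 peak pairs lay at the 5′ boundary of their gene, the outermost annotated base on the side of its start, and 0 at the 3′ boundary (10 of 10, 95% exact Clopper-Pearson interval 69.2% to 100%, for counting error only). The rule of choice used the distance to either boundary. The 10 genes are a chosen set, all of known strand, that left out 2 genes within the limit. The count and its interval are therefore a description. The genes lay on 8 chromosomes, 4 on the plus and 6 on the minus strand. Boundaries of other genes with both centres of a shared peak within 1 kb numbered 17 at 5′ and 6 at 3′ ends (73.9% at 5′, interval 51.6% to 89.8%), with 13 more at genes whose strand is not in the table. Some of these genes are neighbours of the 10 and have the same peak. Peaks found in 1 line alone were also counted. In 3T3-L1 there were 3 within 100 bp, with 2 at a 5′ boundary and 1 of unknown strand. In C3H10T1/2 there were 13, with 8 at a 5′ boundary and 5 of unknown strand. So no peak of known strand within 100 bp of a boundary, shared or not, was at a 3′ end, and the 5′ position is not particular to the 10 genes. The difference between classes was not tested.

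**Figure D1:**
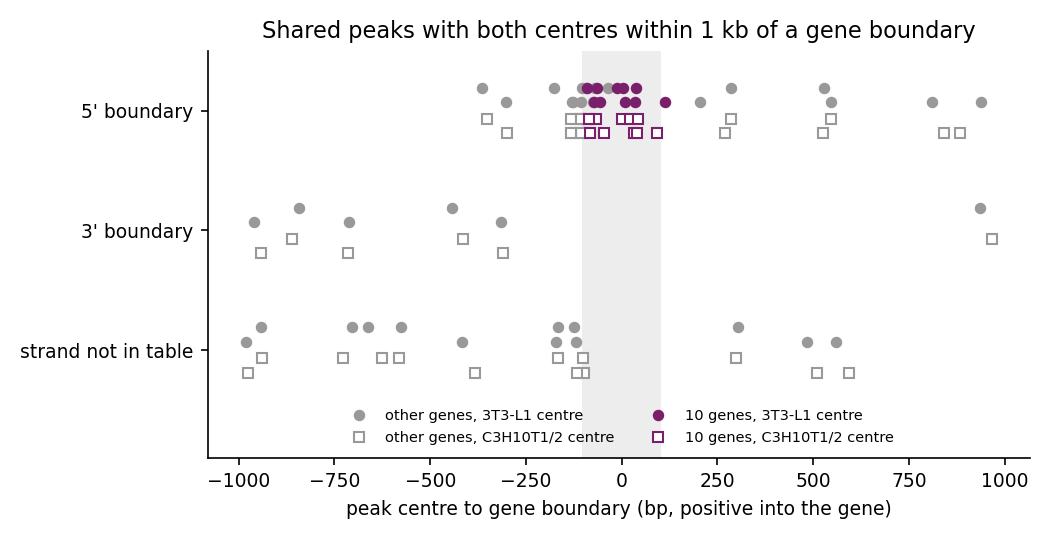
Distance from peak centre to gene boundary (bp, positive into the gene) for shared peaks with both centres within 1 kb, split into 5′ boundaries, 3′ boundaries and genes whose strand is not in the table. Filled circles are 3T3-L1 centres and open squares C3H10T1/2 centres; the 10 genes are in purple, the grey band spans 100 bp to each side, and points are shifted slightly up or down for legibility. The purple points all lie in the 5′ row, and the 3′ row is empty within the band.

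The genes that encode transcription factors were Irf9, Tcf3 and Zfp763. Irf9 encodes the DNA-binding subunit of ISGF3, the factor through which type I interferon switches on antiviral genes. At Irf9 (chromosome 14, 55603985 to 55610030, plus strand) the 3T3-L1 peak was 179 bp wide with its centre 4 bp downstream of the boundary. The C3H10T1/2 peak was 263 bp wide with its centre at the boundary itself, an offset of 0 bp. Among protein-coding genes no other shared peak had both centres this near a boundary, which is the value the choice of genes used. Both peaks covered the listed start, which coincides with the boundary. A further start is listed 594 bp into the gene, outside both peaks.

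Tcf3 encodes E12 and E47, the E proteins that pair with lineage factors of the basic helix-loop-helix family. At Tcf3 (chromosome 10, 80409541 to 80433976, minus strand) the peaks were the widest of the 10 genes, at 358 bp in 3T3-L1 (80433809 to 80434166) and 490 bp in C3H10T1/2 (80433690 to 80434179). The centre lay 11.5 bp upstream of the boundary in 3T3-L1 and 41.5 bp downstream in C3H10T1/2, so the centres lay 53 bp apart, the farthest among the 10, on opposite sides of the boundary. The start listed for Tcf3 lies 341 bp inside the boundary, and neither peak covered it. The peak centres were 352.5 and 299.5 bp upstream of it.

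Zfp763 encodes a zinc finger protein. At Zfp763 (chromosome 17, 33016864 to 33033381, minus strand) both peaks were narrow, 120 bp in 3T3-L1 and 128 bp in C3H10T1/2, and they ended at the same base, 33033531. The centres lay 90.5 and 86.5 bp upstream, and neither peak reached the boundary. It was the narrowest C3H10T1/2 peak of the group.

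Wsb1, Chek2 and Tsn encode proteins of ubiquitin, checkpoint and nucleic acid biology. Wsb1 encodes a SOCS box protein that brings substrates to a ubiquitin ligase. At Wsb1 (chromosome 11, 79239382 to 79254709, minus strand) the peaks were 141 and 202 bp wide in 3T3-L1 and C3H10T1/2, with centres 37 and 20.5 bp downstream of the boundary. The nearest listed start lies 14 bp inside the boundary, under both peaks. Another is listed 11685 bp into the gene and had no peak.

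Chek2 encodes a kinase that halts the cell cycle after DNA damage. At Chek2 (chromosome 5, 110839800 to 110874140, plus strand) the 3T3-L1 list had a peak at 110839813 to 110840012, and the overlapping C3H10T1/2 peak spanned 110839773 to 110840011. These centres lay 112.5 and 92 bp downstream of the boundary, which was covered in C3H10T1/2 and missed by 13 bp in 3T3-L1. Measured from the listed start, 183 bp inside the boundary, both centres were upstream, by 70.5 and 91 bp, and both peaks covered that start. Whether Chek2 counts as bound before or after its start thus turned on which annotated start was used.

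Tsn encodes translin, a single-stranded nucleic acid binding protein that works with Tsnax in an RNA-cutting complex. At Tsn (chromosome 1, 118298514 to 118311461, minus strand) the peaks were 240 and 363 bp wide, with centres 7.5 and 31 bp downstream of the boundary in 3T3-L1 and C3H10T1/2. The start listed for Tsn lies 733 bp inside the boundary, the farthest of the 10, so the same peaks lay 725.5 and 702 bp upstream of it.

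Ift20 and Galnt15 serve protein traffic and glycosylation. Ift20 encodes an intraflagellar transport protein that links the Golgi to the primary cilium. At Ift20 (chromosome 11, 78536361 to 78541732, plus strand) the peaks were 179 and 255 bp wide, with centres 35 and 41 bp downstream of a boundary that is also the listed start. Galnt15 belongs to the enzyme family that starts mucin-type O-glycosylation. At Galnt15 (chromosome 14, 32028782 to 32062204, plus strand) the 3T3-L1 peak was the wider one, 246 bp against 223 bp, which was not so at any of the other 9 genes. Its centres lay 65.5 and 68 bp upstream of the boundary, only 2.5 bp apart, and 386.5 and 389 bp upstream of the listed start.

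Got1 and Ndufa9 encode metabolic proteins, the cytosolic aspartate aminotransferase of the malate-aspartate shuttle and a subunit of respiratory complex I. At Got1 (chromosome 19, 43499752 to 43524605, minus strand) the peaks were 252 and 299 bp wide with centres 56.5 and 45 bp upstream, and both covered the boundary, which is the listed start. At Ndufa9 (chromosome 6, 126821863 to 126849144, minus strand) the 3T3-L1 peak was 97 bp wide (126849168 to 126849264), the narrowest of the group. The C3H10T1/2 peak at Ndufa9 was 147 bp wide (126849153 to 126849299). Centres at Ndufa9 lay 72 and 82 bp upstream, and both peaks ended short of the start.

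**Figure D2:**
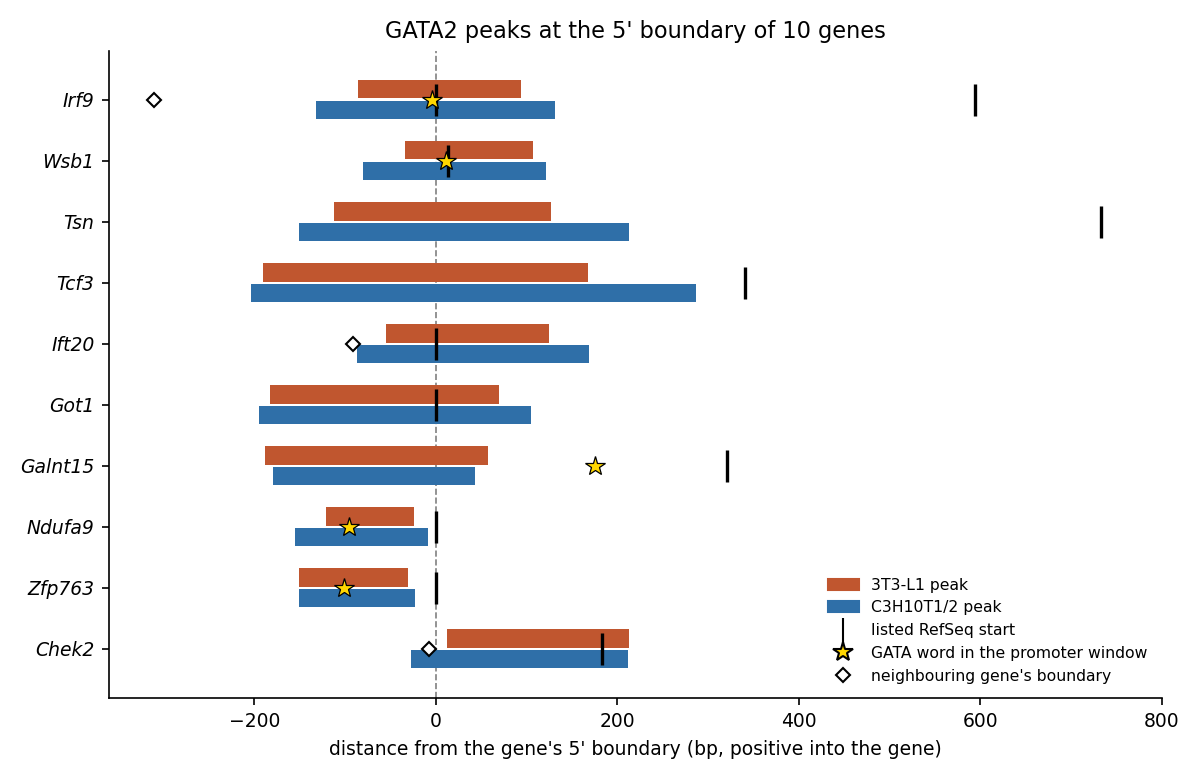
Extent of the 3T3-L1 (orange) and C3H10T1/2 (blue) peak at each of the 10 genes, in bp from the gene's 5′ boundary with positive values into the gene; black ticks are RefSeq starts listed within 800 bp, stars six-letter GATA words in the promoter window, and diamonds boundaries of neighbouring protein-coding genes within 1 kb. At 7 genes both peaks span the boundary, while those of Ndufa9 and Zfp763 stop upstream of it and those of Tsn, Tcf3 and Galnt15 stop before the listed start.

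The pairs can thus be sorted by position. The boundary lay inside both peaks at 7 of the 10 genes, inside the C3H10T1/2 peak alone at Chek2, and outside both at Ndufa9 and Zfp763. Both centres lay at or downstream of the boundary at 5 genes, both upstream at 4, and Tcf3 was split. The listed start nearest the peaks was the boundary itself at 5 genes, and it lay under both peaks at 5 (Irf9, Wsb1, Ift20, Got1 and Chek2). These offsets, being what chose the genes, are given as a description.

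With both centres required to lie within 100 bp of the same boundary, 9 of the 10 genes met the rule and Chek2 did not, because of its 3T3-L1 centre. That call took in 0.0509% of all protein-coding genes, or 11, so 2 further genes met it. They were Cstad, with centres 69.5 and 94 bp upstream of its 5′ boundary in 3T3-L1 and C3H10T1/2, and the kinase-like gene Stk40, with 75 and 99 bp. Just outside were Psat1, an enzyme gene of serine synthesis (36 and 105 bp upstream), and Cyb5b (107.5 and 105 bp upstream). Both were nearer than Chek2. The next shared peaks beyond Chek2 lay at the chromatin remodeller gene Arid1a (94.5 and 116.5 bp), Baalc (125.5 and 100 bp), Sumf2 (104.5 and 133 bp), BC003965 (130 and 133.5 bp) and Sik1 (166 and 167.5 bp). The 10 genes are therefore not a closed class, and genes with like positions lie on both sides of the limit. In single lists, 0.074% of genes had a 3T3-L1 peak centre within 100 bp of a boundary and 0.125% had a C3H10T1/2 centre.

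Most of the pairs were nested, one peak inside the other. The 3T3-L1 peak lay wholly inside the C3H10T1/2 peak at 8 genes, against 47.8% of all 548 overlapping pairs. At Galnt15 the C3H10T1/2 peak lay inside the 3T3-L1 peak, and at Chek2 199 of the 200 bp of the 3T3-L1 peak were shared. The C3H10T1/2 peak was the wider at 9 of the 10, against 68.4% of all pairs, and the median ratio of its width to that of the 3T3-L1 peak was 1.40, against 1.20 over all pairs. How each list was called bears on these widths, and its part was not tested. Centres of a pair lay 2.5 to 53 bp apart, with a median of 10.75 bp against 20 bp over all pairs. The rule of choice used the position of both centres, and its part in the smaller median was not tested. Nesting depends on the distance between centres as well, and the rule's part in the count of nested pairs was not tested either. Both values are given as a description.

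Width varied 3.69-fold among the 3T3-L1 peaks of the 10 genes, from 97 bp at Ndufa9 to 358 bp at Tcf3, with a median of 189.5 bp. In C3H10T1/2 it varied 3.83-fold, from 128 bp at Zfp763 to 490 bp at Tcf3, with a median of 247 bp. The medians of all shared peaks were 173.5 and 205 bp, and those of unshared peaks 136 and 174 bp. Peaks of 7 genes were wider than the median of the 3T3-L1 list (49.2% of all its peaks are), and peaks of 8 genes were wider than that of the C3H10T1/2 list (49.5%). Shared peaks were wider than unshared ones in both lists, so these counts alone do not set the 10 genes apart. Whether their widths differ from those of other shared peaks was not tested. Within the shared peaks alone the 10 genes spread over nearly the whole range. Tcf3 stood at percentile 97.1 of shared 3T3-L1 widths and 98.3 of shared C3H10T1/2 widths, Tsn at 80.1 and 93.1, Irf9 at 53.5 and 74.1, Ndufa9 at 11.1 and 17.8, and Zfp763 at 22.1 and 7.96. The other genes were Got1 at 83.4 and 84.4, Galnt15 at 81.4 and 57.8, Chek2 at 61.7 and 64.3, Ift20 at 53.5 and 70.4, and Wsb1 at 33.6 and 47.4. Tcf3 was thus the widest, and Ndufa9 and Zfp763 the narrowest, in both lists.

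**Figure D3:**
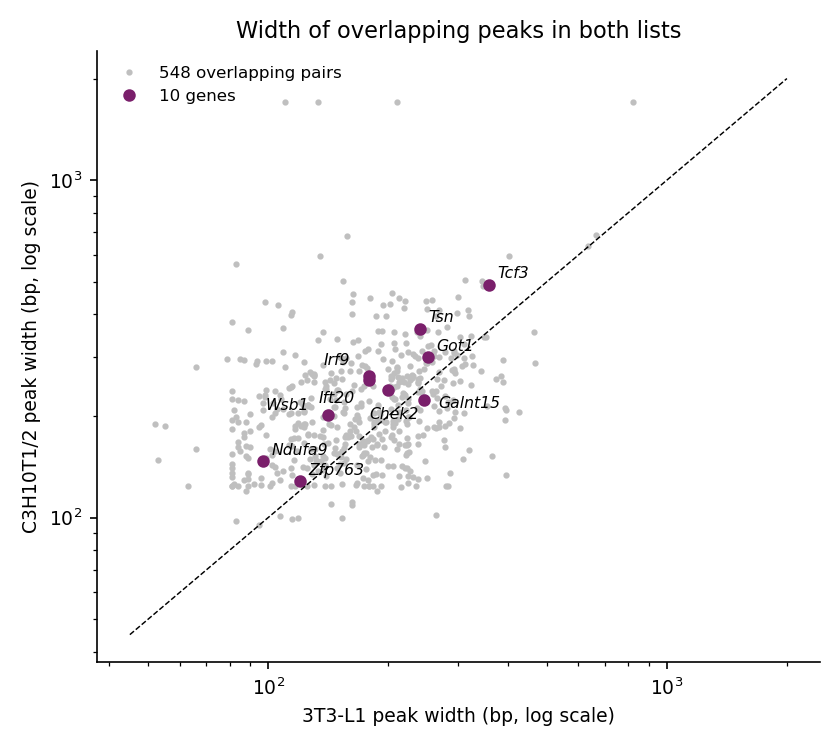
Width of the 3T3-L1 peak against the width of the C3H10T1/2 peak (bp, log scales) for all 548 overlapping pairs (grey) and the 10 genes (purple); the dashed line marks equal width. Galnt15 alone of the 10 lies below the line, and Tcf3 is the widest in both lists.

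None of the 10 gene bodies held a further peak of either list. Of all protein-coding genes, 3.96% had a 3T3-L1 peak centre inside or within 10 kb, and 3.64% had a C3H10T1/2 centre. With shares that low, finding none in 10 genes is no result about them. The nearest other 3T3-L1 peak lay 49.9 kb (Galnt15) to 3339 kb (Irf9) away, with a median of 577 kb, and 1 of the 10 had another peak within 100 kb. Over the whole 3T3-L1 list the median spacing was 80.3 kb and 53.5% of peaks had another within 100 kb. In C3H10T1/2 the nearest other peak lay 352 kb (Got1) to 4989 kb (Irf9) away, with a median of 952 kb. None had a neighbour within 100 kb there, where 41.4% of the list did and the median spacing was 165 kb. The peaks of Ift20 and Wsb1, 718 kb apart on chromosome 11, were each other's nearest in C3H10T1/2. The 3T3-L1 list holds dense blocks, such as 63 peaks inside or within 10 kb of Mdm2, where the C3H10T1/2 list had 0. The part of such blocks in the spacing of the list was not tested. Spacing was not computed for other shared peaks or other peaks at boundaries. Wide spacing is thus not shown to be particular to the 10 genes.

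At 3 of the 10 genes another protein-coding gene had a boundary within 1 kb of the 5′ boundary, against 15.4% of the 17274 genes of known strand. With neighbours of any gene type the count was also 3, against 24.2%. The exact interval for 3 of 10, 6.67% to 65.2%, includes both shares. At Chek2 and Ift20 the neighbour's boundary lies within 100 bp, so the peaks cannot be given to 1 gene by distance alone. Chek2 was the closest case. The higher boundary of Hscb, which encodes a co-chaperone of iron-sulfur cluster assembly, lies 7 bp from that of Chek2, inside the C3H10T1/2 peak and outside the 3T3-L1 peak. The centres lay 119.5 and 99 bp from it. Ift20 and Tnfaip1, which encodes a ubiquitin ligase adaptor, start 91 bp apart on opposite strands. Both peaks covered the Ift20 boundary and reached into the stretch between the starts, without covering the Tnfaip1 boundary. Their centres lay 126 and 132 bp from the Tnfaip1 boundary. Irf9 follows Rnf31, a gene for a subunit of the linear ubiquitin ligase, on the same strand. The end of Rnf31 lies 311 bp upstream of Irf9, beyond both peaks. At Ndufa9 the nearest neighbour, Akap3, starts 3954 bp away on the other strand. No gene of any type had a boundary within 5 kb of the 5′ boundary of the other 6 genes.

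The sequence under the peaks could be read at 8 of the 10 genes, because the promoter windows of Tsn and Galnt15 lie outside their peaks. A six-letter GATA word lay under both peaks at 4 of these 8, namely Irf9, Wsb1, Ndufa9 and Zfp763, whose stretches are printed above. The word lay 4.5 to 25.5 bp from the peak centres. A word under a narrow peak cannot lie far from its centre, and whether these lay nearer than the widths alone would give was not tested. Its middle was 8.5 bp from the 3T3-L1 centre and 4.5 bp from the C3H10T1/2 centre at Irf9, and 25.5 and 9 bp at Wsb1. At Ndufa9 the distances were 23.5 and 13.5 bp, and at Zfp763 they were 11 and 15 bp. Relative to the listed start the words of Irf9 and Wsb1 lay 4.5 and 2.5 bp upstream. Those of Ndufa9 and Zfp763 lay 95.5 and 101.5 bp upstream. So at Irf9 both word and peak centres lay within 4.5 bp of the start. At Wsb1 the word lay at the start, with the centres 23 bp (3T3-L1) and 6.5 bp (C3H10T1/2) downstream of it. At Ndufa9 and Zfp763 both word and centres lay before the start.

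How often any promoter holds such a word in the same place gives the background. In the stretch under the 3T3-L1 peak of Irf9, 12.8% of all 32619 promoter windows held a word. The shares were 9% for the stretch at Wsb1, 10.9% for Ndufa9 and 13.5% for Zfp763. For the genes without a word they were 10.3% at Tcf3, 9.66% at Ift20, 22.9% at Got1 and 20.5% at Chek2. Under the C3H10T1/2 peaks the shares were 17.7% at Irf9, 13.7% at Wsb1, 16% at Ndufa9 and 14.4% at Zfp763. They were 22.8% at Tcf3, 12.9% at Ift20, 24.1% at Got1 and 24.5% at Chek2. At Tcf3 only 77 of the 358 bp of the 3T3-L1 peak could be read, so a word in the rest would not have been seen.

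Other promoter peaks held the word too. Of peaks with at least 60 bp inside a promoter window, it lay under 60% of 15 other shared 3T3-L1 peaks and 64.3% of 14 unshared ones. In C3H10T1/2 it lay under 62.5% of 16 other shared peaks and 50% of 14 unshared peaks. The median distance from word to centre was 17.25 bp at the 10 genes' 3T3-L1 peaks, against 13.5 bp at other shared and 13.5 bp at unshared peaks. In C3H10T1/2 it was 11.25 bp against 16.75 and 27.5 bp. A GATA word near the centre was thus found at promoter peaks of each class, against 50% of the 8 readable peaks at the 10 genes, and the differences between classes were not tested.

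**Figure D4:**
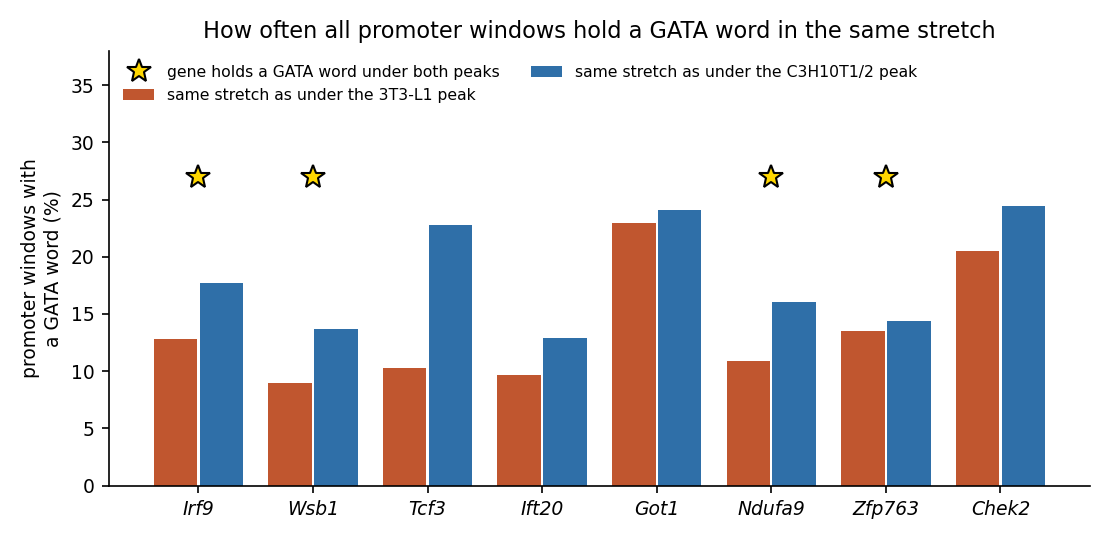
Share of all 32619 promoter windows (%) that hold a six-letter GATA word in the stretch that lies under the 3T3-L1 peak (orange) or the C3H10T1/2 peak (blue) of each gene with readable sequence. Stars, placed at a fixed height, mark the 4 genes that hold a word under both peaks; the bars run from 9% to 24.5%.

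In the whole promoter window of 300 bases, 5 of the 10 genes held a six-letter GATA word (50%, exact interval 18.7% to 81.3%), against 29.6% of all windows. The fifth was Galnt15, whose word lay 241 bp from the 3T3-L1 centre and 243.5 bp from the C3H10T1/2 centre, outside both peaks. The four-letter core GATA, which every six-letter word contains, was in the windows of all 10, against 57.7%. It lay under both peaks at all 8 readable genes. Of all windows, 22.4% to 47.6% hold it in the stretch under the 3T3-L1 peak, and 30.2% to 50.1% in that under the C3H10T1/2 peak. At Got1 it was 25 and 36.5 bp from the 3T3-L1 and C3H10T1/2 centres and at Ift20 3.5 and 9.5 bp, in a stretch just beyond the bases printed. At Chek2 it was 67 and 87.5 bp away, and at Tcf3 126 and 73 bp.

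Words of other factors were searched in the same windows on both strands, 14 in all. The ETS word CCGGAAG was in the windows of Tcf3 and Ift20 (2 of 10, against 8.92%), and it lay under both peaks of each. The YY1 word AAGATGGC was in those of Wsb1 and Ndufa9 (2 of 10, against 2.76%), under the peaks at Wsb1 alone. The cyclic AMP response word TGACGTCA was in that of Wsb1 (1 of 10, against 1.8%), 57.5 bp from the 3T3-L1 centre and 41 bp from the C3H10T1/2 centre. It can be read in lower case in the stretch above. The NF-Y word CCAAT was in 4 windows (37.6%), those of Tsn, Got1, Zfp763 and Chek2, and the GC box GGGCGG in 4 (35.9%), those of Wsb1, Tcf3, Ift20 and Zfp763. The general E-box CANNTG was in 6 (72.3%) and the E-box CACGTG in that of Wsb1 (7.2%). The AP-1 word TGANTCA was in the windows of Galnt15 and Ndufa9 (7.85%) and the TEAD word GGAATG in those of Ndufa9 and Zfp763 (14.6%). The RUNX word TGTGGT was in that of Zfp763 (16.6%). The interferon response element was in the window of Ndufa9 (3.46%) and not in that of Irf9. No window of the 10 held the NRF1 word (4.63%), the TATA word TATAAA (13.7%) or the STAT word TTCCNGGAA (1.16%). Counts of 0 to 2 in 10 windows carry wide error: for 2 of 10 the exact interval is 2.52% to 55.6%, which includes all of the shares given for the words found in 2 windows.

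Base composition was read over whole windows, so for Tsn and Galnt15 it describes the listed start and not the peak. CpG pairs occurred at 0.745 times the number expected from C and G content in the median window of the 10 genes, against 0.387 over all windows and 0.574 over those of protein-coding genes. At 8 of the 10 the value was above the protein-coding median, with the highest at Tcf3 (1.03) and Wsb1 (0.996). Galnt15 (0.366) and Irf9 (0.392) were the exceptions. The GC content had a median of 57% against 56.7% for protein-coding genes, from 44% at Zfp763 to 61.7% at Tcf3.

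Partners of the 10 gene products were looked up in 9 lists of related genes, with none made for Zfp763. Without the 10 genes themselves, 7 of 139 listed genes (5.04%) had a 3T3-L1 peak centre inside or within 10 kb, against 3.96% of all genes, and 6 (4.32%) had a C3H10T1/2 peak, against 3.64%. These shares are near the background. In the interferon signalling list of Irf9, Jak1, a kinase gene of cytokine receptors, had 1 peak in each list, both 17.8 kb inside the gene from its nearer boundary. Of the E protein partners of Tcf3, the inhibitor genes Id1 and Id3 had a C3H10T1/2 peak 4.2 and 3.45 kb away and no 3T3-L1 peak in the window, and Tcf4 had 1 in each list. Among the relatives of Galnt15, Galnt1, Galnt7 and Galnt9 had a 3T3-L1 peak and Galnt2 a C3H10T1/2 peak, in each case in 1 list alone. In the malate-aspartate shuttle of Got1, Slc25a12 had a 3T3-L1 peak inside the gene, 42.3 kb from its nearer boundary. In the checkpoint list of Chek2, Wee1 had a C3H10T1/2 peak 7.04 kb away. Mdm2 had 63 peaks of 3T3-L1 in this window and no C3H10T1/2 peak, the nearest lying 333 kb away. No other gene of the 9 lists had more than 1 peak per line, so Mdm2 is a dense block set apart from the rest. The 36 other complex I genes, the 16 other intraflagellar transport genes, the 11 other adaptor genes of the Wsb1 list and the 5 other RNA genes of the Tsn list had none.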

How the data were processed

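Each list gives the chromosome, start (counted from 0) and end of the authors' deposited peaks, in bp, with no score, height or p column; starts are printed counted from 1. Per the submitters' processing notes, CASAVA 1.8, Bowtie2, SAMtools, bedtools and MACS2 were used with build mm10; how they were set, which threshold made a peak, how input was used and whether the 2 libraries of a line were merged are not given in the sources used here. The depth is unknown. Both the threshold and any merging of libraries can change where a peak begins and ends.

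With Python 3.11.15, pandas 2.3.3, numpy 2.4.6 and scipy 1.17.1, peaks overlapping by at least 1 bp were called shared. Boundaries were those of RefSeq genes in GRCm38.p6 (21631 protein-coding genes on chromosomes 1 to 19 and X), and strand, starts and sequence from its promoter windows of 300 bases. All 10 genes matched. The gene table holds no exons, so exons and UTRs are not given. The overlap, boundary and motif code was tested on simulated data. No p-value was computed: the genes and lists were chosen with earlier results of these data known, and each line has 1 list. Genes were named by rule: the 10 genes, neighbours within 1 kb of their peaks, genes of the nearest other shared peaks, and listed pathway genes with a peak within 10 kb. Akap3 falls outside this rule and was named after its values were seen. One list of symbols held 20 names for 17 genes. Alternatives were another overlap, distance limit, width minimum, gene set, neighbour window and motif.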

Additional observations from a re-analysis of the deposited data

How the results depend on the processing

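The counts rest on a single list per line, so leaving out a replicate was not possible. No paired analysis was possible because the peak lists carry no replicate numbers. Genes with a shared peak at a boundary numbered 11, with 5 when both centres had to lie within 50 bp and 23 within 200 bp. They numbered 8 to 14 under the other settings (50% overlap of both peaks, boundary inside both peaks, centre of the overlap, peaks of at least the median width, all gene types). Of the 10 genes, 9 met the limit of 100 bp and 5 that of 50 bp, all at the 5′ boundary, and 10 met that of 200 bp. Reading the four-letter core GATA in place of the six-letter words raised the count of genes with a match from 5 to 10, as the shorter word must match more often. Taking the background from windows of protein-coding genes alone, a setting chosen after seeing the data, gave 25.8% in place of 29.6%. Pathway genes besides the 10 with a peak within 1 kb of a boundary numbered 1 in 3T3-L1, namely Mdm2, and 0 in C3H10T1/2. Those with one inside or within 100 kb numbered 16 in each. Neighbour counts were 3 or 4, and mean widths were 201 bp in 3T3-L1 and 261 bp in C3H10T1/2.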

Other observations

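Promoter peaks outside the 10 genes showed the same closeness of word and centre at some genes. Of 9 further genes named for the position of a shared peak, 7 had at least 60 bp of readable sequence under the C3H10T1/2 peak and 5 of these held a six-letter GATA word there. At BC003965 the middle of the word lay 0.5 bp from the 3T3-L1 centre and 4 bp from the C3H10T1/2 centre. At Stk40 it lay 13.5 and 10.5 bp away, at Arid1a, which encodes a subunit of the SWI/SNF chromatin remodelling complex, 12 and 34 bp, and at Sumf2 27 and 1.5 bp. Cyb5b had its word 132 and 129.5 bp from the centres. Psat1 and Cstad had no word in the bases read, which for the C3H10T1/2 peak were 300 of 357 bp at Psat1 and 300 of 439 bp at Cstad.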
